A study of Mus musculus with 3 samples.

Results

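The transcripts of 8 Bcl2 family members, Bcl2, Bcl2l1, Mcl1, Bcl2l11, Bmf, Bik, Bax and Bad, were read in early thymocytes of C57BL/6 mice. The rows were taken by gene symbol from 3 single cell count tables, in which each member had 1 row, out of 28692 genes listed in run 1 and run 2 and 32285 in run 3. All 8 members were kept by the filter on low counts and tested among 10635 genes. Each run was 1 library of thymi from 4 mice, labelled as 6 weeks of age, that were pooled and depleted of CD4 and CD8 expressing cells before sorting. Run 1 held total double negative (DN) and TCRγδ+ thymocytes, run 2 held DN1 and DN2 thymocytes, and run 3 held DN1, DN2, DN3 and TCRγδ+ thymocytes. The mice carried no genetic change or treatment that the labels name. Since no sort was repeated, a difference between runs cannot be told apart from a difference between sorts or reagent kits.

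The Bcl2 family decides whether mitochondria release cytochrome c and start the caspases that kill a cell. Bcl2, Bcl-xL (encoded by Bcl2l1) and Mcl1 hold the pore-forming protein Bax in check, whereas the BH3-only proteins Bim (Bcl2l11), Bmf, Bik and Bad bind the survival members and release Bax. In thymocytes, IL-7 receptor signals are known to sustain Bcl2, Bcl-xL is known for keeping CD4+CD8+ cells alive, and Bim is needed for the deletion of self-reactive cells.

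The cells used had 500 to 5000 detected genes and no more than 7% of their counts from mitochondrial genes, which left 5516, 8852 and 7511 cells in run 1, run 2 and run 3, with a median of 5990, 4844 and 8507 unique molecular identifiers (UMIs) per cell. A gate was a set of marker UMIs per cell, and 14604 of the 21879 cells, or 66.7%, fell into 11 gates. The gates were named ETP-like (early thymic progenitor, Kit with Flt3 or Cd34), Kit-negative DN1-like (Il7r without Kit), DN2a-like (Il2ra with Kit or Cpa3), DN2b-like (the same with Ptcra or Rag), resting and cycling DN3-like (Ptcra and Il2ra, split by 7 cycling genes) and DN4-like (Cd8 transcripts with little Il2ra). Cells with Trdc and CD3 transcripts were divided by Cd24a, and cells with Trac transcripts by 7 natural killer (NK) genes. A gate was used in a run where it held at least 20 cells, which gave 7, 10 and 11 gates. These are gates on transcripts, not on surface receptors, since run 2 had been sorted against TCRγδ+ cells and still filled the Trdc gates with 427 and 412 cells. Run 2 was also a sort of DN1 and DN2 cells only, and still had 431 resting and 325 cycling DN3-like cells.

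Markers outside the gates were checked. Mef2c, Hhex, Lmo2 and Spi1 were highest in the ETP-like gate in both runs that held it, Notch1 and Notch3 in the resting DN3-like gate in all 3 runs, and Tbx21 in the Trac gate with NK genes in both. The names DN2a-like and DN2b-like rest on the gate genes, since Gata3, Tcf7 and Bcl11b were higher in 2 or more other gates of each run. The DN4-like gate had the highest Trbc2 of both runs, but Cd28 was higher in 2 other gates of run 1 and in 5 of run 3. In the Trac gate with NK genes, Trbc2 was the lowest of all gates, at 1552 and 1637 CPM. Of 7 markers of B, myeloid and plasmacytoid cells, which were also used to leave cells out, 0 to 5 had a UMI in a gate and their sum lay between 0 and 46.4 CPM, and 4 hemoglobin genes summed to 0 to 29.4 CPM. Their part in the results was not tested.

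Levels are given as CPM, a gene's UMIs per 1000000 UMIs of the gate, with the exact Poisson 95% interval, which covers counting error only. The chemistry counts 3′ ends, so no scaling by gene length was made, and how well the 3′ end of each gene was captured was not tested. Tests therefore compare a gene with itself between gates, and where counts of different members are set side by side, they are counts of captured transcripts. The level summed over a gate cannot tell fewer expressing cells from less RNA per cell.

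Bcl2 (GRCm38, chromosome 1, 106538178 to 106714274, minus strand) was the survival member with the widest range. In run 1 it fell from 466 CPM (436 to 497) in DN2a-like cells to 25.1 CPM (22.1 to 28.5) in DN4-like cells, an 18.5-fold range. In run 2 it ranged from 291 CPM (277 to 306) in the Trac gate with NK genes to 26.0 CPM (18.5 to 35.6) in the Trac gate without them. In run 3 it ranged from 296 CPM (288 to 305) in DN2a-like cells to 36.9 CPM (26.0 to 50.8) in the Trac gate without NK genes. The DN2, resting DN3-like, Trdc and NK-gene Trac gates thus made up the upper part of the order in each run, and the ETP-like, Kit-negative, cycling DN3-like, DN4-like and remaining Trac gates the lower part.

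**Figure D1:**
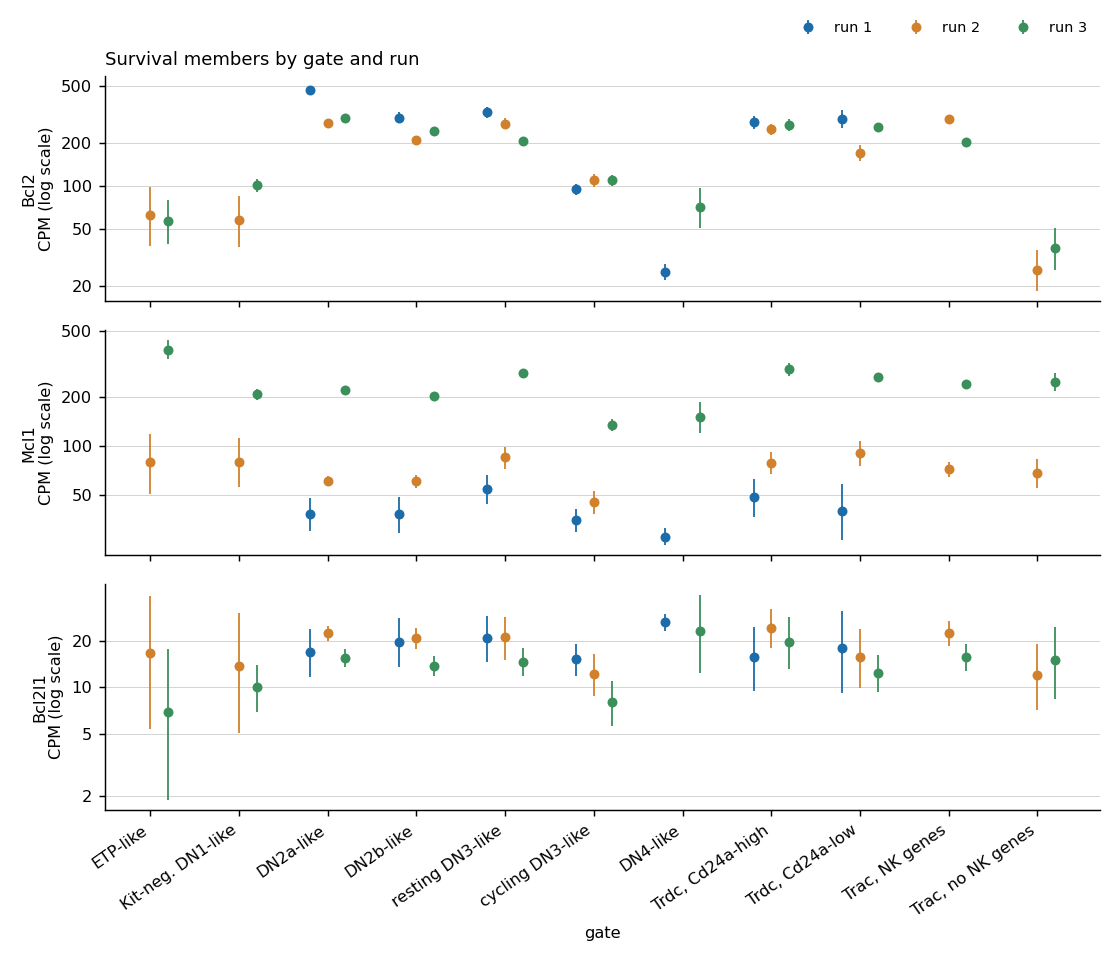
Level of the survival members Bcl2, Mcl1 and Bcl2l1 (CPM, log axis) in each gate, with points for the runs and bars for the exact Poisson 95% interval. Bcl2 lies at 169 CPM or above in the DN2-like, resting DN3-like, Trdc and NK-gene Trac gates and at 110 CPM or below in the others, while Mcl1 is highest in run 3 in each gate.

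Within the upper part, the order of Bcl2 differed between runs. In run 1, the intervals of resting DN3-like (325 CPM), DN2b-like (299 CPM), Trdc Cd24a-low (292 CPM) and Trdc Cd24a-high (276 CPM) cells overlapped from neighbour to neighbour, and only DN2a-like cells stood above them. In run 2, the Trac gate with NK genes, DN2a-like, resting DN3-like (271 CPM) and Trdc Cd24a-high (248 CPM) gates overlapped in the same way, whereas DN2b-like (209 CPM) and Trdc Cd24a-low (169 CPM) cells were below. In run 3, DN2a-like, Trdc Cd24a-high (266 CPM), Trdc Cd24a-low (257 CPM) and DN2b-like (241 CPM) cells overlapped from neighbour to neighbour, although DN2a-like and DN2b-like cells did not overlap each other, followed by resting DN3-like (206 CPM) and NK-gene Trac (200.5 CPM) cells.

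The same was seen in single cells. When each cell was thinned to 2000 UMIs, 62.1%, 40.8% and 42.5% of DN2a-like cells of run 1, run 2 and run 3 had a Bcl2 UMI, against 81.8%, 76.2% and 87.0% with all UMIs. The thinned share was 39.5%, 36.9% and 30.4% in resting DN3-like cells and 17.3%, 16.6% and 17.3% in cycling DN3-like cells. With all UMIs it was 55.8%, 56.6% and 61.1% in resting and 51.3%, 57.8% and 77.0% in cycling cells, which were deeper. It was 4.35% (3.11% to 5.90%) in DN4-like cells of run 1 and 3.35% (1.74% to 5.78%) and 2.73% (0.566% to 7.76%) in the Trac gate without NK genes. The intervals after shares are exact Clopper-Pearson 95% intervals. Without thinning, the shares of these DN4-like and Trac cells were 20.6%, 7.54% and 18.2%.

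Mcl1 (chromosome 3, 95658788 to 95663176, plus strand) encodes a short-lived survival protein. Its level moved little between gates of a run, over a 1.95-fold range in run 1, 1.98-fold in run 2 and 2.88-fold in run 3, but it differed between runs. In DN2a-like cells it was 38.3, 61.0 and 219 CPM in run 1, run 2 and run 3. Over the gates, run 3 was a median of 5.34-fold above run 1 (3.82 to 6.56 in 7 gates) and 3.33-fold above run 2 (2.57 to 4.87 in 10 gates). The median fold for Bcl2 was 0.879 and 1.07. Bcl2l11 shared the shift, with medians of 4.23-fold and 4.30-fold, while Bax was at 0.706 and 0.784 and Bad at 0.800 and 0.881. The sort, the kit and the counting of the runs cannot be told apart as its source.

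Bcl2l1 (chromosome 2, 152780668 to 152831728, minus strand) was counted at 6.92 to 26.2 CPM, below Bcl2 and Mcl1 in every gate and run but DN4-like cells of run 1, where it was at 26.2 CPM and Bcl2 at 25.1 CPM. It was highest in the DN4-like gate in run 1, at 26.2 CPM (23.1 to 29.7), and in run 3, at 23.1 CPM (12.3 to 39.6), and in the Trdc Cd24a-high gate in run 2, at 24.2 CPM (17.9 to 31.9). The interval of the DN4-like gate overlapped that of most other gates in both runs, and in run 3 the gate held 36 cells. In run 2 the interval of the Trdc Cd24a-high gate overlapped that of the next gate.

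The make-up of the survival transcripts was read as the share of each member in the summed UMIs of Bcl2, Bcl2l1 and Mcl1 within a gate and run. Bcl2l2 and the Bcl2a1 paralogs, which are also survival genes, were left out of this sum. Because of the run difference in Mcl1, shares are compared only within a run. Bcl2 made up most of the counted sum in DN2a-like cells, with 89.4% in run 1, 76.8% in run 2 and 55.8% in run 3, or 74.0% ± 17.0 (SD, n = 3). These were the highest shares of run 1, run 2 and run 3, although in run 2 the interval (75.6% to 78.0%) overlapped that of the Trac gate with NK genes (73.6% to 77.4%). DN2b-like cells had 83.8%, 72.0% and 52.6%, and resting DN3-like cells had 81.1%, 71.8% and 41.3%.

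Among the lower shares, ETP-like cells stood at 39.6% in run 2 and 12.6% in run 3, where Mcl1 made up 24 of 48 survival UMIs and 85.8%. In Kit-negative DN1-like cells the Bcl2 share was 37.9% and 31.8%, and Mcl1 held 53.0% and 65.0%. In the Trac gate without NK genes Bcl2 held 24.5% and 12.4% and Mcl1 64.2% and 82.6%, while the Trac gate with NK genes had 75.5% and 44.1% Bcl2. DN4-like cells of run 1 were the gate with the most even counts of the members, 31.7% Bcl2, 33.1% Bcl2l1 and 35.3% Mcl1. In run 3 they had 29.2% Bcl2, 9.49% Bcl2l1 and 61.3% Mcl1, and this was the highest Bcl2l1 share of run 3.

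**Figure D2:**
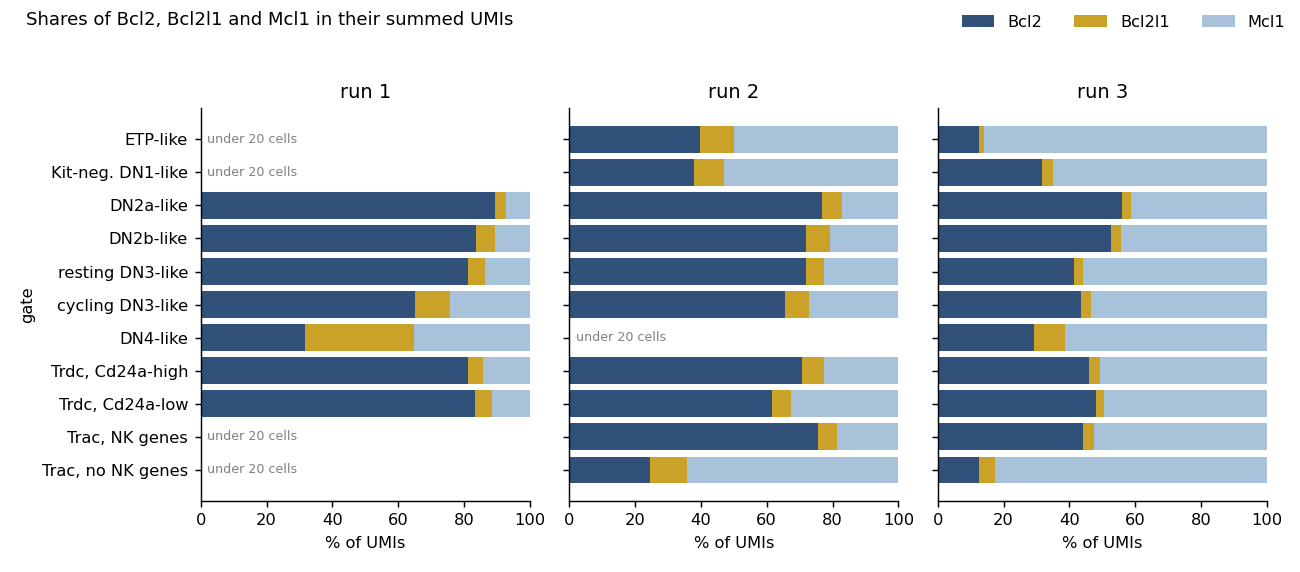
Share of Bcl2, Bcl2l1 and Mcl1 in their summed UMIs (%), by gate, with a panel for each run. Bcl2 is the larger part in DN2a-like cells, with 89.4%, 76.8% and 55.8%, and the smaller part in the Trac gate without NK genes, with 24.5% and 12.4%.

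Differences between gates were tested by edgeR on UMIs summed per run and gate, with the run as a block, in 28 sums over all gates. Adjusted p-values below are from its quasi-likelihood test with Benjamini-Hochberg adjustment over the 10635 genes, and a gene was called at an adjusted p-value under 0.05. The fitted log2 changes use TMM scaling, whereas the values within a run are plain CPM. The runs are single pools, and the p-values measure how much the differences between gates vary from run to run, with a spread shared by all 28 sums.

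The first comparison asked how the members differ between DN1-like and DN2a-like cells. In DN2a-like against ETP-like cells, 2 of 8 members were called, 1 higher and 1 lower, where 7.86% of all genes were called, 3.65% higher and 4.21% lower. Bcl2 was at 276 CPM against 63.0 in run 2 and at 296 CPM against 57.1 in run 3, 4.38-fold and 5.19-fold higher in turn, and it rose by 2.43 on the log2 scale (SE 0.37, adjusted p = 7.3e-05). Mcl1 fell by 0.79 (SE 0.17, adjusted p = 0.0037), with 61.0 against 79.5 CPM in run 2, within counting error, and 219 against 387 CPM in run 3. The ETP-like gate held 34 and 43 cells. Bcl2l1 had 22.3 against 16.6 CPM and 15.6 against 6.92 CPM, from 5 and 4 UMIs in the ETP-like gate, and was not called (log2 0.75, adjusted p = 0.32).

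In Kit-negative DN1-like against ETP-like cells, 3 of 8 members were called, 2 higher and 1 lower. Of all genes, 19.5% were called, 10.8% higher and 8.75% lower. Bik, a BH3-only gene, was at 36.7 CPM (16 UMIs) in run 2 and 37.7 CPM (132 UMIs) in run 3, and had 0 UMIs in the ETP-like gate of both. With a floor of 3 UMIs in place of each count of 0, it was 3.69-fold and 7.28-fold higher. These folds leave out the counting error of the Bik UMIs. The fitted log2 change of Bik was 10.4 (SE 2.07, adjusted p = 0.00077), and with 0 UMIs in the ETP-like gate its size is poorly known. In run 2 the interval of the Bik level was 21.0 to 59.6 CPM, against 0 to 12.2 CPM in the ETP-like gate. Bax rose by 0.87 (SE 0.20, adjusted p = 0.0026), from 96.1 to 213 CPM in run 2 and from 109 to 153 CPM in run 3. Mcl1 fell by 0.57 (SE 0.20, adjusted p = 0.042), with nearly level values in run 2 (80.3 against 79.5 CPM) and 206 against 387 CPM in run 3. This call was lost with no filter on low counts (adjusted p = 0.090) and with doublets removed by Scrublet (adjusted p = 0.11). Bcl2 was at 57.4 against 63.0 CPM in run 2 and 101 against 57.1 CPM in run 3 and was not called.

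From DN2a-like to DN2b-like cells, 0 of 8 members were called, where 0.376% of all genes were called, 0.301% higher and 0.0752% lower. Bcl2 was lower in each run, from 466 to 299, 276 to 209 and 296 to 241 CPM. The fitted change was -0.45 (SE 0.22), with an adjusted p = 0.94. At an unadjusted p under 0.05 there were 2 members, Bcl2 and Bmf, and DESeq2 called 0.

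In resting DN3-like against DN2b-like cells, 2 of 8 members were called, both higher, where 26.3% of all genes were called, 14.0% higher and 12.2% lower. Bmf (chromosome 2, 118528757 to 118549687, minus strand), which is known to sense the loss of attachment and of growth factors, rose from 4.31 to 9.29 CPM in run 1, from 2.20 to 9.23 CPM in run 2 and from 4.99 to 15.8 CPM in run 3 (log2 1.70, SE 0.29, adjusted p = 0.0001). These were 16, 18 and 96 UMIs, and the resting DN3-like gate had the highest Bmf level of each run. Its interval overlapped that of a Trdc gate in each run, so the top place lies within counting error. Mcl1 rose from 38.2 to 54.6, from 60.7 to 85.1 and from 203 to 278 CPM (log2 0.51, SE 0.14, adjusted p = 0.0085). Where gates were drawn on cells thinned to 2000 UMIs, neither was called, with changes of 0.78 for Bmf and 0.27 for Mcl1. The Mcl1 call was also lost without run 2 (adjusted p = 0.092) and without run 3 (adjusted p = 0.12).

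The DN2b-like gate held cycling cells and the resting DN3-like gate did not. When only DN2b-like cells with 0 to 1 cycling UMIs were read, a split that was added after the data had been seen and was not tested, Mcl1 was at 46.0, 76.6 and 277 CPM in run 1, run 2 and run 3, against 54.6, 85.1 and 278 CPM in resting DN3-like cells, with overlapping intervals. Bmf was at 12.8, 3.33 and 11.5 CPM in these cells, from 5, 5 and 38 UMIs, against 9.29, 9.23 and 15.8 CPM. The differences of both genes were thus smaller between resting cells, and that of Bmf in run 1 had the opposite sign. The intervals of Bmf overlapped in each run.

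Per UMI, cycling DN3-like cells had lower survival transcripts than resting ones in all runs. The DN3-like cells of run 2 came from a sort of DN1 and DN2 thymocytes, so run 2 does not repeat the sorts that included DN3 cells. Of 8 members, 4 were called, all lower, where 46.6% of all genes were called, 19.5% higher and 27.1% lower. Bcl2 dropped from 325 to 94.2 CPM in run 1, from 271 to 110 CPM in run 2 and from 206 to 109 CPM in run 3, and fell by 1.29 on the log2 scale (SE 0.23, adjusted p = 6.4e-05). The fold between resting and cycling cells was thus 3.45, 2.47 and 1.89, and the levels of the gates did not overlap.

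Mcl1 went from 54.6 to 35.2, from 85.1 to 45.4 and from 278 to 134 CPM (log2 -0.83, SE 0.14, adjusted p = 3.9e-05). Bmf went from 9.29 to 3.20, from 9.23 to 1.19 and from 15.8 to 2.95 CPM (log2 -2.14, SE 0.33, adjusted p = 1.1e-05). Bcl2l1 went from 20.9 to 15.1, from 21.0 to 12.2 and from 14.6 to 8.00 CPM (log2 -0.61, SE 0.18, adjusted p = 0.0084), within counting error in run 1. The Bcl2l1 call was lost without run 2 (adjusted p = 0.12), without run 3 (adjusted p = 0.16), with stricter gates and with thinned gates. All 3 survival members and 1 BH3-only member were thus lower in cycling cells by this test, relative to all transcripts of the cell. Cycling cells were deeper, with a median of 10518, 9621 and 19721 UMIs against 3047, 4366 and 7130. Per cell, Bcl2 was at 1.06, 1.14 and 2.13 UMIs in cycling and 1.14, 1.23 and 1.56 UMIs in resting cells, and Mcl1 at 0.396, 0.471 and 2.63 against 0.191, 0.385 and 2.1 UMIs. Counted per cell, Bcl2 was thus lower in cycling cells in run 1 and run 2 and higher in run 3, while Mcl1 was higher in each run. Bcl2l1 was also higher per cell in each run, at 0.170, 0.126 and 0.156 against 0.0733, 0.0951 and 0.111 UMIs. Bmf was higher per cell in run 1 and lower in run 2 and run 3. The part of depth was not tested. The median change of the 8 members was -0.60, and that of all genes was -0.15. Bax was at 180 against 141, 129 against 130.3 and 127 against 104 CPM and was not called (log2 0.27, adjusted p = 0.089). It was called higher without run 2 (adjusted p = 0.031), at a mitochondrial limit of 5% (adjusted p = 0.031) and with at least 50 cells per gate (adjusted p = 0.018). Bcl2l11 was lower in run 1 and run 3 and higher in run 2, where it was at 10.7 against 5.64 CPM. Its intervals in the resting and cycling gates overlapped in run 1 and run 2.

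**Figure D3:**
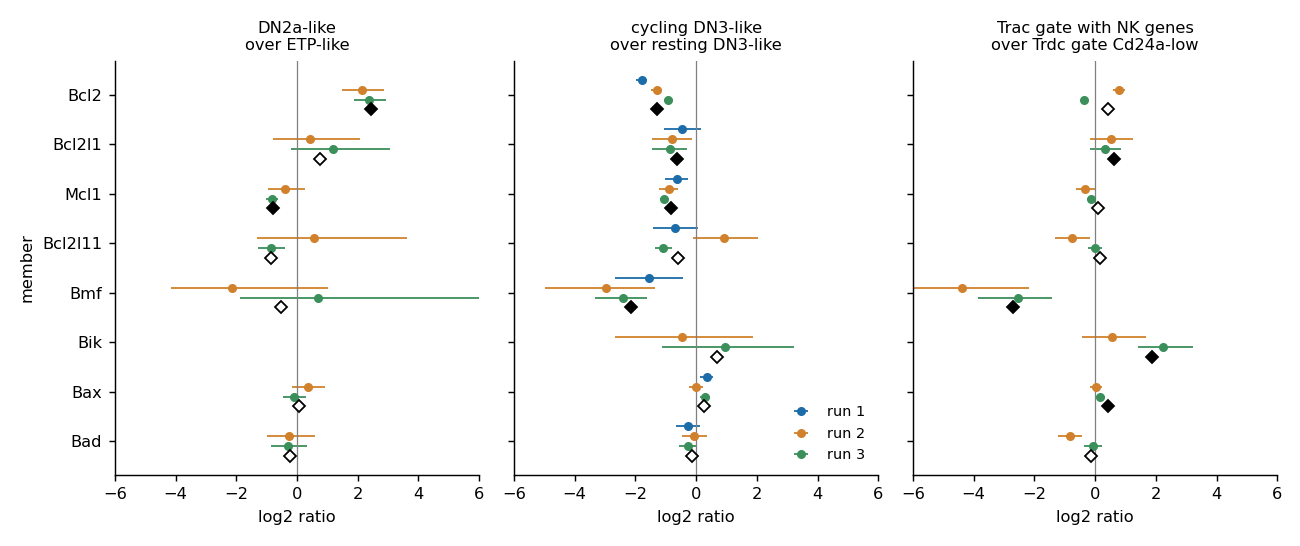
Log2 ratio of each member within run 1, run 2 and run 3 (points, with exact 95% intervals from the counts) and the change fitted by edgeR (diamonds, filled where called) in 3 comparisons. Intervals that pass the axis limits are cut, and Bik is left out where a gate had 0 UMIs. Bcl2, Bcl2l1, Mcl1 and Bmf are left of 0 in each run in cycling DN3-like cells.

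Of the 4 members called lower in this comparison, the starts of Bcl2, Mcl1 and Bmf are shown for the letters that lie there. Those of Bcl2l1, which held no match, are not printed. Bmf rests on 15, 4 and 14 UMIs in the cycling gate. The 250 bases before a start, from the RefSeq promoters of GRCm38.p6, were searched on both strands for 5 motifs. These were the GC box with the letters GGGCGG, the CCAAT box, whose name gives its letters, and the E box with the letters CACGTG. The other two were the letters GTAAACA, known to be bound by Foxo factors, and the letters TTCNNNGAA, known to be bound by STAT factors. Of the 8 members, 7 were matched, with 13 starts, and Bik was not. Capitals mark the matches, which are GC boxes in Bcl2 and Mcl1 and CCAAT boxes in Bmf. The sequences are written 5′ to 3′ on the strand of the gene, and for Bmf the start farthest upstream is shown.
Bcl2, chr1:106714291-106714540, minus strand: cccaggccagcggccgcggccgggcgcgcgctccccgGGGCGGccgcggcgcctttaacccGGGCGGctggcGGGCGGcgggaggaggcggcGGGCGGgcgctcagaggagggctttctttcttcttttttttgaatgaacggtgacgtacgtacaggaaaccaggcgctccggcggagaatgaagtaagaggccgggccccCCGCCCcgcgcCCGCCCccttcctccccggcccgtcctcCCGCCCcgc
Mcl1, chr3:95658471-95658720, plus strand: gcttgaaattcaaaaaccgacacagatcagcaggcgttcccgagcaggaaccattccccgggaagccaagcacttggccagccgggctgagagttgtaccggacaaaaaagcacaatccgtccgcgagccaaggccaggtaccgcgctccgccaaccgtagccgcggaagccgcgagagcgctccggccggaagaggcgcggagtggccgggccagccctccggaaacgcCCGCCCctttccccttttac
Bmf, chr2:118549687-118549936, minus strand: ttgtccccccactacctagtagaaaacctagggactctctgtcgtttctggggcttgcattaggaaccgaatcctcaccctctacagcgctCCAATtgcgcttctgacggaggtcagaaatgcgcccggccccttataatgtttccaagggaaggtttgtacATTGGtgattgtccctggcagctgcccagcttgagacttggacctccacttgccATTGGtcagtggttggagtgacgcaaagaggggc

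The Bcl2 window held 7 GC boxes and 74.8% G and C, the Mcl1 window 1 GC box and 64.4% G and C, and the Bmf window 3 CCAAT boxes and 54.0% G and C. A GC box was present in 32.7% and CCAAT in 33.8% of 32817 mouse promoter windows of this length, whose median was 52.4% G and C. The windows of Bcl2l1, at 3 starts, held no match. GC boxes also lay at starts of members not called in cycling against resting DN3-like cells. Bax held 2, Bad 3 and 0, and Bcl2l11 3 and 2, counted per start. The other Bmf starts held 0 and 1 CCAAT boxes, those of Bcl2l11 1 and 2, and those of Bad 0 and 1. The STAT motif, present in 7.01% of windows, was found at 0 of the 13 starts, and the Foxo motif, present in 3.16%, at 1 start of Bcl2l11. The RefSeq starts of Bcl2 and Mcl1 lie upstream of those in GENCODE M21, the source of the gene positions given here. A match says that the letters are there and not that a factor binds.

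The DN2-like gates were then divided by the same cycling genes, a split that was added after the data had been seen and was not tested. In DN2a-like cells with 0 to 1, 2 to 4 and 5 or more UMIs of the cycling genes, Bcl2 was at 700, 486 and 307 CPM in run 1, 358, 266 and 231 CPM in run 2 and 387, 330 and 254 CPM in run 3. In DN2b-like cells it was at 542, 483 and 190 CPM, 326, 244 and 171 CPM, and 273, 296 and 215 CPM. The cells with most cycling UMIs had the lowest Bcl2 in each stage and run. They were also the deepest, with a median of 6592 against 3377 UMIs in DN2a-like cells of run 1, for example, and the part of depth was not tested.

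**Figure D4:**
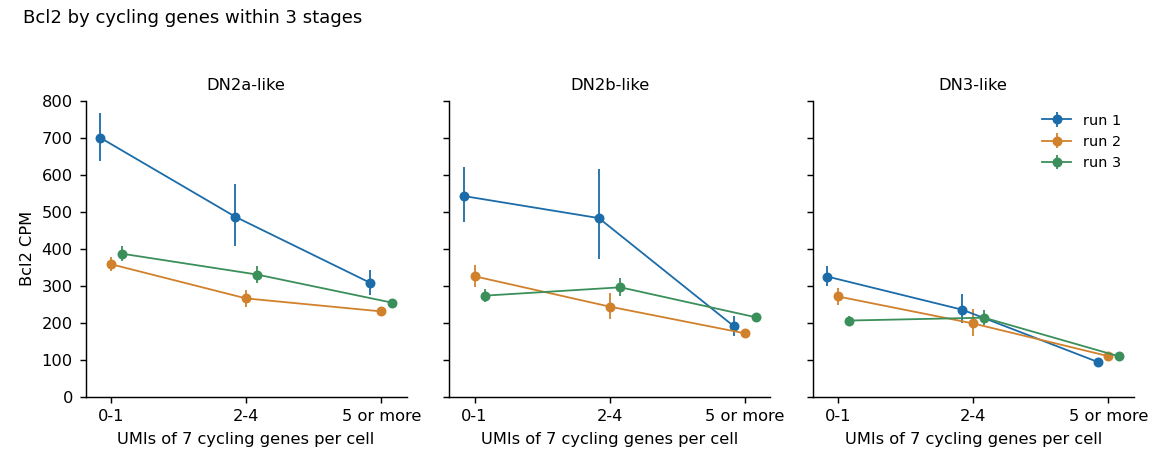
Level of Bcl2 (CPM) in DN2a-like, DN2b-like and DN3-like cells, divided by the UMIs of 7 cycling genes per cell. Points are runs, joined by lines, with exact Poisson 95% intervals. The level is lowest in the cells with 5 or more cycling UMIs in each panel and run, from 94.2 CPM in DN3-like to 307 CPM in DN2a-like cells.

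In DN4-like against cycling DN3-like cells, 2 of 8 members were called, 1 lower and 1 higher, where 2.35% of all genes were called, 1.18% higher and 1.17% lower. Bcl2 was at 25.1 against 94.2 CPM in run 1 and at 71.2 against 109 CPM in run 3 and fell by 1.57 on the log2 scale (SE 0.33, adjusted p = 0.0090). Bcl2l1 moved the other way, with 26.2 against 15.1 CPM in run 1 and 23.1 against 8.00 CPM in run 3, and rose by 1.24 (SE 0.20, adjusted p = 0.00091). Bcl2 was thus lower, and Bcl2l1 higher, in DN4-like cells in both runs. Mcl1 was at 28.0 against 35.2 CPM and 149 against 134 CPM and was not called. The gate held 897 cells in run 1 but 36 in run 3, in which Il7r was at 247 CPM and Bik at 14.2 CPM (8 UMIs), against 12.0 and 0.613 CPM in run 1. Without run 2, which has no DN4-like gate, the adjusted p-values were 0.13 for Bcl2 and 0.085 for Bcl2l1.

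The Trdc gates were compared with resting DN3-like cells and with each other. In Trdc Cd24a-high against resting DN3-like cells, 0 of 8 members were called, where 22.0% of all genes were called, 11.2% higher and 10.9% lower. Bcl2 was at 276 against 325, 248 against 271 and 266 against 206 CPM in run 1, run 2 and run 3, with a fitted change of -0.07 and an SE of 0.23. Mcl1 was at 48.7 against 54.6, 78.9 against 85.1 and 293 against 278 CPM. Bmf was at 3.30 against 9.29, 2.96 against 9.23 and 13.3 against 15.8 CPM (log2 -0.92, SE 0.35, adjusted p = 0.060). Bmf was the only member at an unadjusted p under 0.05, and DESeq2 called 0. In gates drawn on thinned cells Bmf was called (log2 -1.63, adjusted p = 0.00443).

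Between Trdc Cd24a-low and Cd24a-high cells, 0 of 8 members were called, where 2.71% of all genes were called, 1.27% higher and 1.44% lower. The gates were split at 200 CPM of Cd24a per cell. Cd24a-low cells had a median of 3285 UMIs in run 1 and 2903 in run 2, where 1 UMI lies above that limit. In most of these cells low thus means that no Cd24a UMI was counted, and the maturity of the cells was not tested. No member had an unadjusted p under 0.05, and DESeq2 called 0. Bcl2 was at 292 against 276 CPM in run 1, 169 against 248 CPM in run 2 and 257 against 266 CPM in run 3. Bcl2l11 was at 1.49 against 7.43, 28.6 against 17.7 and 59.5 against 110 CPM, and so was lower in Cd24a-low cells in run 1 and run 3 and higher in run 2. The intervals overlapped in run 1, with 1 UMI in Cd24a-low cells, and in run 2, but not in run 3. The Trdc Cd24a-high gate had the highest Bcl2l11 level of run 3, with an interval that overlapped that of the ETP-like gate.

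The Trac gate with NK genes was compared with the Trdc Cd24a-low gate in run 2 and run 3, where 4 of 8 members were called, 3 higher and 1 lower. Of all genes, 29.0% were called, 15.0% higher and 14.0% lower. Bmf fell by 2.71 (SE 0.50, adjusted p = 0.00016), with 0.380 against 7.85 CPM in run 2 and 1.32 against 7.74 CPM in run 3. These were 2 against 11 UMIs and 8 against 35 UMIs, which limits how well the size of the change is known. Bik rose by 1.88 (SE 0.51, adjusted p = 0.0069), with 10.4 against 7.14 CPM in run 2, within counting error, and 13.7 against 2.88 CPM in run 3. DESeq2 did not call Bik (adjusted p = 0.094).

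Bcl2l1 and Bax were also called, and both depend on the scaling. Bcl2l1 was at 22.4 against 15.7 CPM and 15.7 against 12.4 CPM (log2 0.62, SE 0.21, adjusted p = 0.024), and Bax at 179.7 against 176 CPM and 133 against 119 CPM (log2 0.44, SE 0.14, adjusted p = 0.022). TMM added 0.29 and 0.20 to the log2 ratios of run 2 and run 3 in this comparison. With library sizes alone, a setting added after the data had been seen, the changes were 0.37 (adjusted p = 0.16) for Bcl2l1 and 0.18 (adjusted p = 0.29) for Bax, and the median of all genes moved from 0.01 to -0.24. The Bax call was also lost without run 1 (adjusted p = 0.087), and the Bcl2l1 call with stricter gates (adjusted p = 0.084). Bcl2 was at 291 against 169 CPM in run 2 and at 200.5 against 257 CPM in run 3, and was not called (log2 0.41, adjusted p = 0.24). In gates drawn on thinned cells it was called (log2 0.73, adjusted p = 0.0036).

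Between the 2 Trac gates, which were set side by side after their values had been seen and were not tested, Bcl2 was 11.2-fold and 5.44-fold higher in the gate with NK genes in run 2 and run 3. Bik was 3.77-fold and 3.28-fold higher in the gate without NK genes, at 39.4 and 44.8 CPM, the highest levels of either run. Bad was also higher in that gate, at 60.8 against 31.3 CPM and 56.8 against 36.1 CPM. Bcl2l11, also a BH3-only member, went the other way. It was lower in the gate without NK genes, at 6.01 against 16.9 CPM and 24.9 against 59.0 CPM, beyond counting error in both runs. Mcl1 was nearly level, at 68.1 against 71.9 CPM and 245 against 239 CPM. The cells without NK genes, 358 and 110 in number, thus had little Bcl2. The interval of Bik overlapped that of Kit-negative DN1-like cells in both runs, and that of Bad overlapped the next gates.

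Among the death members, Bik (chromosome 15, 83526862 to 83544634, plus strand) was the one most confined to some gates. It lay at 2.47 CPM or below in the DN2-like, DN3-like and Trdc Cd24a-high gates and at 0 UMIs in the ETP-like gates. With cells thinned to 2000 UMIs, 6.03% and 7.65% of Kit-negative DN1-like cells and 9.22% and 10.9% of Trac cells without NK genes had a Bik UMI in run 2 and run 3. In resting DN3-like cells the shares were 0.232% and 0.125%. The part of free RNA in any of these shares was not tested. With all UMIs the shares were 12.1% and 24.7%, 15.4% and 30%, and 0.928% and 0.498%.

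Bcl2l11 (chromosome 2, 128126038 to 128162547, plus strand) had its highest level in a different gate in each run. The level was 15.1 CPM in resting DN3-like cells in run 1 and 28.6 CPM in Trdc Cd24a-low cells in run 2. In run 3 it was 110 CPM in Trdc Cd24a-high cells. The interval of the highest gate overlapped that of the next gate in each run, so these top places lie within counting error. It was called in 0 of the 9 comparisons.

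Bax (chromosome 7, 45461697 to 45466898, minus strand) was present throughout, from 96.1 CPM in ETP-like to 213 CPM in Kit-negative DN1-like cells, both of run 2. Its range was 1.32-fold in run 1, 2.22-fold in run 2 and 1.5-fold in run 3. Bad (chromosome 19, 6941861 to 6951899, plus strand) was at 31.3 to 60.8 CPM and was called in 0 of the 9 comparisons, with ranges of 1.29-fold, 1.94-fold and 1.79-fold.

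**Figure D5:**
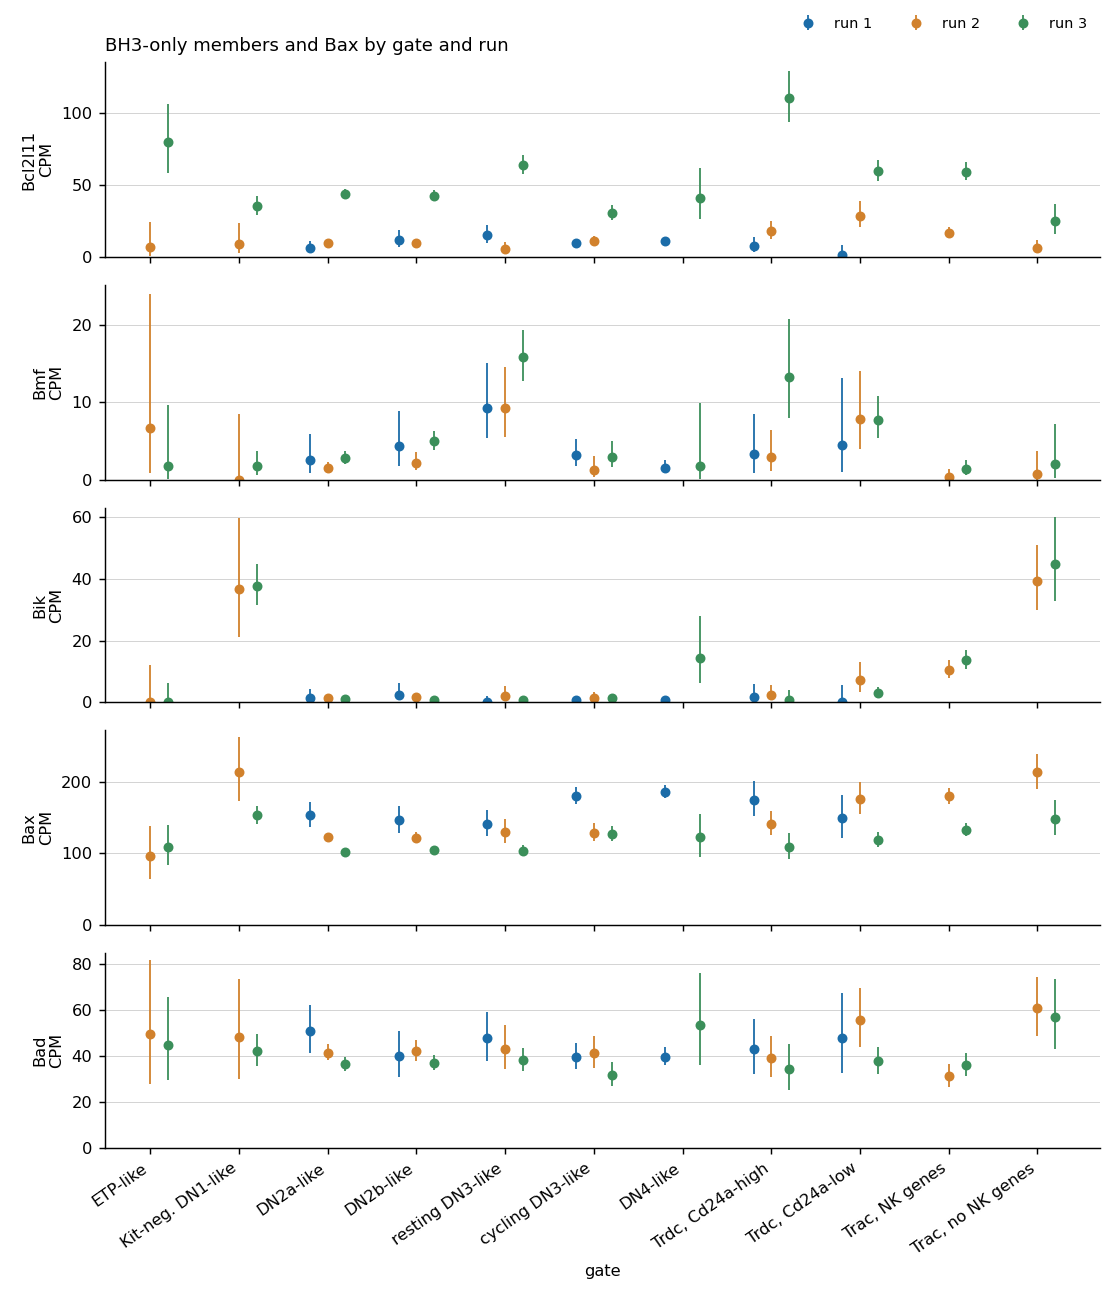
Level of Bcl2l11, Bmf, Bik, Bax and Bad (CPM, linear axes from 0) in each gate, with points for the runs and bars for the exact Poisson 95% interval. Bik stands out in the Kit-negative DN1-like gate and in the Trac gate without NK genes (36.7 to 44.8 CPM). Bmf is highest in resting DN3-like cells in each run, with an interval that overlaps that of the next gate.

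A wider list of 17 genes of the same pathway was read beside the members, of which 15 passed the filter and Hrk and Bok did not. In cycling against resting DN3-like cells, 4 of the 15 were called higher and 5 lower, where 19.5% and 27.1% of all genes were, with a median change of -0.09. Among all genes the median was -0.15. Cycs, which encodes cytochrome c, went from 170 to 604, 181 to 437 and 116 to 448 CPM (log2 1.73, adjusted p = 1.5e-07). Bid, a BH3-only gene, rose by 0.76. Bbc3, which encodes the BH3-only protein Puma, fell by 1.26, Bcl2l2, a survival member, by 1.01, and Xiap, an inhibitor of caspases, by 0.38. Bcl2a1d and Bcl2a1b, survival paralogs among which reads may be split, also fell. From DN2b-like to resting DN3-like cells, 3 of 15 were called lower, among them Cycs (-0.95), and 0 higher, where 12.2% and 14.0% of all genes were.

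In the other comparisons, 0 to 6 of the 15 were called, and the share of all genes is given with each. In Trac cells with NK genes against Trdc Cd24a-low cells, 4 were called higher, Bid, Bbc3, Bcl2a1b and Bcl2a1d, and 2 lower, among them Apaf1, a part of the apoptosome. Of all genes, 15.0% were called higher and 14.0% lower there. In that comparison Bcl2a1b and Bcl2a1d rose by 2.84 and 3.31 on the log2 scale. In Kit-negative DN1-like against ETP-like cells, 3 of 15 were called, all higher, where 10.8% of all genes were called higher. These were Bcl2a1b, Bcl2a1d and Xiap. The fitted log2 changes of Bcl2a1b and Bcl2a1d were 6.95 (SE 1.05) and 5.60 (SE 0.84). The ETP-like gate held 34 and 43 cells in run 2 and run 3. There 3 UMIs are 9.94 and 5.19 CPM, which limits how well the size of these changes is known. In DN4-like against cycling DN3-like cells Bcl2a1b and Bcl2a1d were higher too. Their fitted log2 changes were 3.59 (SE 0.97, adjusted p = 0.049) and 5.40 (SE 1.23, adjusted p = 0.016). These 2 were the only genes of the 15 called, where 1.18% of all genes were called higher and 1.17% lower. The DN4-like gate of run 3 held 36 cells, which limits these changes too. In Trdc Cd24a-high against resting DN3-like cells, 2 of 15 were called higher, among them Cycs, where 11.2% of all genes were. Bcl2a1a and Bcl2a1b were higher in Trdc Cd24a-low than in Cd24a-high cells (adjusted p = 0.045 and 0.049). These were 2 of 15, where 1.27% of all genes were called higher, and DESeq2 called 0 of the list. Bbc3 was lower in DN2a-like than in ETP-like cells, at 6.99 against 19.9 CPM and 6.53 against 19.0 CPM (log2 -1.54, adjusted p = 0.036). It was 1 of 15 called lower, where 4.21% of all genes were. From DN2a-like to DN2b-like cells 0 of 15 were called, where 0.376% of all genes were, with 1 at an unadjusted p under 0.05 and 0 by DESeq2.

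The genes most like a member were sought over the 28 sums of gates and runs, as Pearson's r of log2(CPM + 1) centred within each run, among 5709 genes, or 5710 for Bcl2l1. The sums of a run share a library, so that r is a description. The nearest to Bcl2 were Foxn3 (0.83), Arhgap26 (0.80) and Akr1c13 (0.79). Mcl1 was followed most closely by Mbnl2 (0.93), Clk1 (0.91) and Inpp5k (0.88). For Bcl2l1 the nearest was Satb1 (0.72) and for Bcl2l11 it was Fam13b (0.71).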

How the data were processed

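The authors made 10x Genomics 3′ libraries with V2 or V3.1 kits, used Cell Ranger and the mm10 genome, and deposited raw UMI counts as whole numbers, with a row for each gene and a column for each cell barcode. Run 3 names version 4.0.0 in its header. For run 1 and run 2 the version is not given in the sources used here. Doublets were kept, except in an alternative. Runs 1 and 2 shared 72 cell barcodes, runs 1 and 3 shared 1, and runs 2 and 3 shared 0.

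The members and lists were chosen with earlier results of these data known. Reads of overlapping genes and paralogs were not resolved here. Named genes were the members, a pathway list of 17 and the 3 genes most like each of 4 members. Cells with at least 3 UMIs of the blood cell markers or 10 of hemoglobin were left out. UMIs were summed per run and gate and tested by edgeR 4.0.16 (limma 3.58.1, R 4.3.3) with filterByExpr, TMM and the two-sided quasi-likelihood F test, with 15 residual degrees of freedom. The run was a block because gates of a run share 1 library. Gate and marker genes were not tested. Some genes of the pathway list are counted but not reported here by name. The test was checked on simulated data. Shares of cells were thinned without replacement in Python 3.11.15. Alternatives were RLE scaling, DESeq2 1.42.0, no filter, Scrublet (scanpy 1.11.5), other limits and gates, no block and leaving out each run. Kept cells held 39803308, 52629426 and 78289786 UMIs in run 1, run 2 and run 3.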

Additional observations from a re-analysis of the deposited data

Results flagged for a closer look

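Bcl2 moved in opposite directions between runs in 3 comparisons, each beyond counting error in at least 1 run on either side, and the difference between runs was not tested. In resting DN3-like over DN2b-like cells, its log2 ratio was 0.12 in run 1, 0.37 in run 2 and -0.23 in run 3. In Trdc Cd24a-high over resting DN3-like cells it was -0.23, -0.13 and 0.37. In the Trac gate with NK genes over the Trdc Cd24a-low gate it was 0.78 in run 2 and -0.36 in run 3. In the first 2 of these comparisons, run 3 differed in sign from run 1 and run 2. The third comparison has values in run 2 and run 3 only, so neither run stands apart there. Each run was a different sort, so that the sort and the library cannot be told apart.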

How the results depend on the processing

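Of the 17 calls of a member, none was reversed under any alternative that gave it a value. RLE scaling, a mitochondrial limit of 5% and leaving out ribosomal protein and mitochondrial genes kept 17 of 17, DESeq2, no filter and Scrublet 16 of 17 each, at least 50 cells per gate 10 of 10, stricter gates 10 of 12 and gates on thinned cells 7 of 10. Without run 1, run 2 and run 3 in turn, 14 of 15, 4 of 8 and 4 of 6 were kept. Calls were gained with thinned gates (2, Bmf and Bcl2) and, for Bax in cycling DN3-like cells, with 3 settings. Library sizes without TMM, added after the data had been seen, kept 15 of 17 and left 2 members called in Trac cells with NK genes over Trdc Cd24a-low cells. Contrasts with ETP-like or DN4-like cells have no value under some of the settings that need more cells or leave out a run.

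Without the replicate block, that is with the run left out of the model, 5 of 17 calls were kept, with 1 member called in Kit-negative over ETP-like, 1 in DN2a-like over ETP-like, 0 in resting DN3-like over DN2b-like, 2 in cycling over resting DN3-like, 0 in DN4-like over cycling DN3-like and 1 in the Trac comparison. With thinned gates, 0 members were called in resting DN3-like over DN2b-like cells and 1 in Trdc Cd24a-high over resting DN3-like cells. The Bcl2 share of Kit-negative cells, as the mean of run 2 and run 3, was then 44.4%, against 34.8% with the gates used above. The Bcl2 share of DN4-like cells, as the mean of run 1 and run 3, was 30.4% as used above. It was 27.0% with stricter gates and 27.5% with a mitochondrial limit of 5%. Without each run in turn, the members called were 1 to 2 in resting DN3-like over DN2b-like, 3 to 4 in cycling over resting DN3-like and, without run 2 alone, the only run that could be left out there, 0 in DN4-like over cycling DN3-like cells. The cause was not tested.

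The split of all genes called higher and lower moved with the scaling. Without TMM it went from 1145 and 931 to 891 and 1180 in Kit-negative over ETP-like, from 126 and 124 to 76 and 200 in DN4-like over cycling DN3-like, and from 1594 and 1487 to 919 and 2791 in the Trac comparison. With RLE it was 84 and 153 in DN4-like cells, and 291 and 555 against 388 and 448 in DN2a-like over ETP-like cells, where DESeq2 gave 240 and 559. Without ribosomal protein and mitochondrial genes it was 85 and 167 in DN4-like cells. Thinned gates changed the number from 1493 and 1301 to 50 and 205 in resting DN3-like over DN2b-like cells, and from 2079 and 2877 to 985 and 823 in cycling over resting DN3-like cells. Without the block, the genes called higher and lower were 49 and 257 in resting DN3-like over DN2b-like, 585 and 437 in cycling over resting DN3-like, 0 and 1 in DN4-like over cycling DN3-like, 80 and 116 in DN2a-like over ETP-like, 352 and 425 in Kit-negative over ETP-like and 239 and 349 in the Trac comparison. Bmf, Bik and Bcl2l1 rest on few UMIs in the smaller gates, and Bmf also in the Trac gate with NK genes, which limits their values.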
